A study of Mus musculus with 6 samples.

Results

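Transcript levels of 9 genes that build, break down or regulate glycogen were examined in quadriceps, a thigh muscle, of mice in which Klf15 was deleted in muscle and of their controls. The genes were chosen by symbol and are 9 of the 23314 genes in the matrix, each on 1 row: Gys1, Gbe1, Ugp2, Pygm, Phka1, Phkb, Phkg1, Ppp1r3a and Ppp1r3c. Control mice, MyoCre (Myogenin-Cre/+), carried Cre recombinase under Myogenin, a gene of differentiating muscle. Knockout mice, K15SKO (Myogenin-Cre/+;K15F/F), carried the same Cre and floxed Klf15, so that the deletion is directed at muscle cells and other cells of the tissue keep the gene. All mice were 2 months old, and total RNA of each group was sequenced in 3 libraries, numbered 1 to 3 in the labels. The series' design text gives n = 4, of which 3 libraries a group were analysed here. Whether each library is a different animal is not said in the labels, and the p-values below therefore speak only of the spread between these samples, which may be technical.

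Glycogen is the glucose store of muscle. Ugp2 makes UDP-glucose, glycogen synthase (Gys1) adds it to the growing chain and the branching enzyme (Gbe1) sets the branch points. Glycogen phosphorylase (Pygm) releases glucose 1-phosphate from the chain ends, and it is switched on by phosphorylase kinase, a complex of regulatory alpha and beta subunits (Phka1, Phkb), a catalytic gamma subunit (Phkg1) and calmodulin. Ppp1r3a and Ppp1r3c bring protein phosphatase 1 to the glycogen particle, where it favours synthesis over breakdown. Klf15 is a zinc-finger transcription factor of muscle, liver and fat.

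In MyoCre muscle the 9 genes lay between 21.5 and 3802 FPKM, a level per transcript length and per mapped fragments of the library. The phosphorylase gene and the 3 phosphorylase kinase genes stood at 38.1% to 50.8% of the MyoCre mean in K15SKO 1 and 2, and at 83.2% to 99.3% of it in K15SKO 3. The synthase gene Gys1 stood at 99.6%, 87.3% and 112% in K15SKO 1 to 3, and the branching enzyme gene Gbe1 was above every MyoCre library in 3 of 3 K15SKO libraries. With all 6 libraries, limma called 0 of the 9 genes at an adjusted p of 0.05, where 0.0517% of all tested genes were called (4 of the 9 had an unadjusted p under 0.05).

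The K15SKO libraries differ among themselves, which bears on every value here. Klf15 itself measured 35.2, 28.4 and 30.5 FPKM across MyoCre 1 to 3, against 2.22, 21.7 and 5.32 FPKM across K15SKO 1 to 3. Its log2 difference was -2.06 (SE 0.66, limma adjusted p = 0.273). Across the 11607 tested genes, Pearson's r of the log2 values of K15SKO 3 was 0.968 to 0.975 with the MyoCre libraries, 0.942 with K15SKO 1 and 0.880 with K15SKO 2. Klf15 stood at 7.08%, 69.3% and 17.0% of the MyoCre mean in K15SKO 1 to 3, and K15SKO 2 also held liver transcripts, with 15 hepatocyte markers summing to 5979 FPKM. How much of its Klf15 signal belongs to muscle was not tested. Relative depth, read from the steps between low values, ran from 0.779 to 1.57 times that of MyoCre 1. FPKM keep no read totals, so no counting interval is given.

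**Figure D1:**
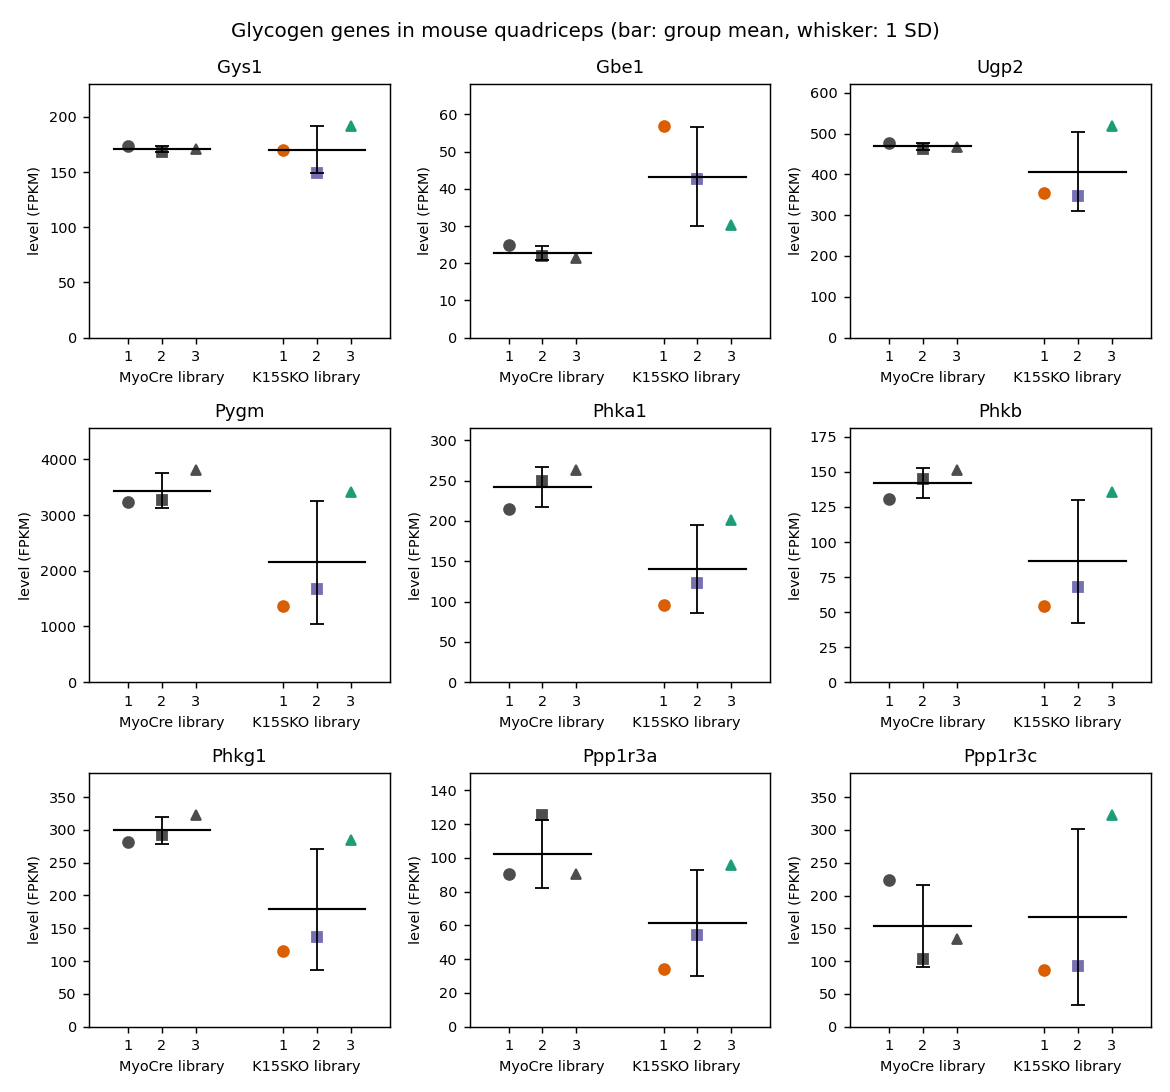
Level of each of the 9 genes (y axis, FPKM, from 0) in the 3 MyoCre and 3 K15SKO libraries (x axis, library number), with the group mean as a bar and 1 SD as a whisker. Pygm, Phka1, Phkb, Phkg1 and Ppp1r3a are low in K15SKO 1 and 2. K15SKO 3 is close to the controls for these genes, though below every MyoCre library for Phka1. Gys1 lies between 149 and 192 FPKM in all 6 libraries, and Gbe1 is higher in every K15SKO library than in any MyoCre library.

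The comparison of K15SKO with MyoCre addresses how loss of muscle Klf15 alters the transcriptome, and is given first for the breakdown genes. Pygm, the most abundant of the 9 in all 6 libraries, measured 3242, 3274 and 3802 FPKM across MyoCre 1 to 3, against 1365, 1670 and 3414 FPKM across K15SKO 1 to 3. K15SKO 1 and 2 lay below every MyoCre library and K15SKO 3 lay within their range, so the groups overlap. The log2 difference on the log2(FPKM + 1) scale was -0.79 (95% interval -1.61 to 0.03, limma adjusted p = 0.309).

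Phkg1, the kinase subunit that phosphorylates phosphorylase, measured 282, 293 and 323 FPKM across MyoCre 1 to 3, against 115, 136 and 285 FPKM across K15SKO 1 to 3. Its log2 difference was -0.85 (95% interval -1.66 to -0.05, limma adjusted p = 0.292). As with Pygm, K15SKO 1 and 2 were the low libraries. Phkb, the beta subunit, measured 130, 145 and 151 FPKM across MyoCre 1 to 3, against 54.2, 68.2 and 136 FPKM across K15SKO 1 to 3, a log2 difference of -0.83 (95% interval -1.62 to -0.04, limma adjusted p = 0.294). Phka1, the muscle form of the alpha subunit, measured 215, 249 and 262 FPKM across MyoCre 1 to 3, against 96.2, 123 and 201 FPKM across K15SKO 1 to 3. It was the single breakdown gene of the 4 whose groups did not overlap, with a log2 difference of -0.85 (95% interval -1.51 to -0.19, limma adjusted p = 0.273).

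Pygm lies on chromosome 19 from 6384399 to 6398459 (plus strand), Phka1 on chromosome X from 102513975 to 102644246 (minus strand), Phkb on chromosome 8 from 85840959 to 86061376 (plus strand) and Phkg1 on chromosome 5 from 129863421 to 129898549 (minus strand), all as protein-coding genes of GENCODE M21 on GRCm38, the mm10 assembly. These genes share no locus. Phkg1 overlaps Chchd2, a mitochondrial protein gene on the same strand, by 6315 bases in that annotation, and Chchd2 was at 307 to 374 FPKM in the 6 libraries, so reads could be split between them and the Phkg1 level is uncertain.

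The sequence before the starts of Pygm, Phka1 and Phkg1 is shown. Ppp1r3a, also low in K15SKO 1 and 2, and Gbe1, high in those libraries, are added for contrast. Pygm stood at 39.7%, 48.6% and 99.3% of the MyoCre mean in K15SKO 1 to 3, where Klf15 stood at 7.08%, 69.3% and 17.0%. Whether Klf15 acts at these starts was not tested. Each is the stretch from 250 to 51 bases before the RefSeq start, 5′ to 3′ on the strand of the gene, on GRCm38.p6: Pygm chr19:6384158-6384357 (plus), Phka1 chrX:102644297-102644496 (minus), Phkg1 chr5:129879139-129879338 (minus), Ppp1r3a chr6:14755325-14755524 (minus) and Gbe1 chr16:70313699-70313898 (plus). The windows of Pygm, Phka1, Ppp1r3a and Gbe1 overlap no gene of GENCODE M21, and the Phkg1 window lies within the longer GENCODE model of Phkg1, outside its exons. The Phkb window is not printed because it overlaps exons of Itfg1, and its matches are counted below. Among the other unprinted windows counted there, that of Gys1 overlaps an exon of Ruvbl2 and those of Ugp2 overlap Gm12043. Capitals mark CACCC (or its reverse complement GGGTG), the box that Krüppel-like factors are known to bind, and the GC box GGGCGG (or CCGCCC).
Pygm: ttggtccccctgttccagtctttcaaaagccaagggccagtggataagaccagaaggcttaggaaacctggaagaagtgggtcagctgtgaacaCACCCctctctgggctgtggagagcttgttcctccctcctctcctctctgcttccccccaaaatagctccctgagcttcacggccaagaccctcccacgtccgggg
Phka1: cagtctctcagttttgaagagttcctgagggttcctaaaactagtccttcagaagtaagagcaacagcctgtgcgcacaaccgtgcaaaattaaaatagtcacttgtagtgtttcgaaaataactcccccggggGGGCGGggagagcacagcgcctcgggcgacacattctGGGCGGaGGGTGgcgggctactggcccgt
Phkg1: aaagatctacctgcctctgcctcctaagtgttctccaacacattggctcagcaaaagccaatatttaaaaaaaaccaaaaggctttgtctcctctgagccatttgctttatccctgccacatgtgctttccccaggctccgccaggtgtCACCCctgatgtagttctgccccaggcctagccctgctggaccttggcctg
Ppp1r3a: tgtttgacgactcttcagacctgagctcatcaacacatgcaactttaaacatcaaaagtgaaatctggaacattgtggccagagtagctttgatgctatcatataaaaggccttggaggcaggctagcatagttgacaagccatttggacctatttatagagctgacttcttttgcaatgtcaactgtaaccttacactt
Gbe1: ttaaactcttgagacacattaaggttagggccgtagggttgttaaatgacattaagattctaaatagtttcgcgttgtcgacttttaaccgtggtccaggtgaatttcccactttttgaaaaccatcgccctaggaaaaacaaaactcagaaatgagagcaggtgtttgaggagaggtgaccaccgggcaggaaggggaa
CACCC or GGGTG occurred 1 time each in the windows of Pygm, Phka1, Phkb and Phkg1, and 0 times in those of Gys1, Gbe1, Ppp1r3a, Ppp1r3c and both Ugp2 starts. Of 8260 tested genes with a RefSeq promoter, 48.9% held it in the same window, so its presence in any given promoter is common. The GC box was in the windows of Gys1, Phka1, Phkb and both Ugp2 starts, against 44.1% of the same 8260 promoters. A match describes the letters of the window and does not show that a factor binds there.

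Among the genes of synthesis, Gys1 varied around the MyoCre level, Gbe1 was higher in K15SKO and Ugp2 was lower in K15SKO 1 and 2 alone. Gys1 (chromosome 7, 45434844 to 45456619, plus strand) measured 173, 168 and 171 FPKM across MyoCre 1 to 3, against 170, 149 and 192 FPKM across K15SKO 1 to 3. The K15SKO values lay on both sides of the MyoCre values, and the means were 171 ± 2.75 and 170 ± 21.4 FPKM (SD, n = 3 each). The log2 difference was -0.01 (95% interval -0.32 to 0.30, limma adjusted p = 0.964). The estimates of the 4 breakdown genes lie below this interval, but their own 95% intervals overlap it. The sign of the Gys1 difference is not fixed: it was 0.02 after median-of-ratios rescaling. Gys1 overlaps Ruvbl2, on the opposite strand, by 3253 bases. Ruvbl2 was at 7.78 to 12.0 FPKM, and whether the counting used strand was not stated.

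Gbe1 (chromosome 16, 70313949 to 70569716, plus strand), the lowest of the 9 genes in every library except K15SKO 1, was at 25.0, 22.0 and 21.5 FPKM in MyoCre 1 to 3. It was at 56.9, 42.6 and 30.4 FPKM in K15SKO 1 to 3, that is 249%, 186% and 133% of the MyoCre mean, with no overlap between the groups. The log2 difference was 0.85 (SE 0.22, 95% interval 0.31 to 1.39, limma unadjusted p = 0.00798, adjusted p = 0.269). K15SKO 1 and 2, the libraries with the lowest Pygm, had the highest Gbe1.

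Ugp2 (chromosome 11, 21321138 to 21371201, minus strand) measured 478, 461 and 468 FPKM across MyoCre 1 to 3, against 353, 348 and 519 FPKM across K15SKO 1 to 3. K15SKO 1 and 2 lay below, and K15SKO 3 above, every MyoCre library. The log2 difference was -0.23 (95% interval -0.67 to 0.21, limma adjusted p = 0.483).

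**Figure D2:**
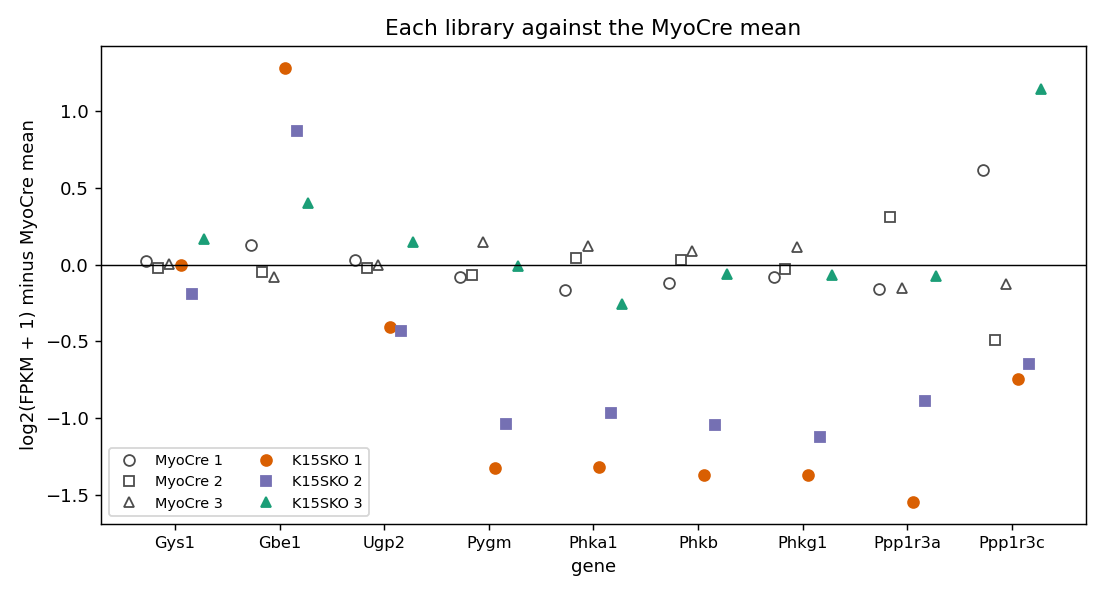
Each library's log2(FPKM + 1) minus the MyoCre mean (y axis) for the 9 genes (x axis), with MyoCre libraries as open and K15SKO libraries as filled symbols. K15SKO 1 and 2 form a low band over Pygm, Phka1, Phkb, Phkg1 and Ppp1r3a, lie near 0 for Gys1 and above it for Gbe1. K15SKO 3 stays close to 0 except for Gbe1, Ppp1r3c and, less so, Phka1 (-0.26), where it lies below every MyoCre library. For Gys1 (0.17) and Ugp2 (0.15) K15SKO 3 lies above every MyoCre library.

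The phosphatase targeting genes differed from each other. Ppp1r3a, the subunit of striated muscle (chromosome 6, 14713977 to 14755274, minus strand), measured 90.5, 125 and 90.7 FPKM across MyoCre 1 to 3, against 33.9, 54.0 and 95.6 FPKM across K15SKO 1 to 3. It showed the pattern of the breakdown genes, low in K15SKO 1 and 2, with a log2 difference of -0.84 (95% interval -1.72 to 0.05, limma adjusted p = 0.310). Ppp1r3c, also called PTG (chromosome 19, 36731731 to 36736653, minus strand), measured 223, 103 and 133 FPKM across MyoCre 1 to 3, against 86.4, 92.4 and 323 FPKM across K15SKO 1 to 3. On the log2 scale it varied more among the MyoCre libraries than any other of the 9, and it was highest in K15SKO 3, at 211% of the MyoCre mean. The log2 difference of -0.08 (95% interval -1.42 to 1.26, limma adjusted p = 0.940) left its direction undetermined: it was 0.23, 0.25 and 0.20 without MyoCre 1, K15SKO 1 and K15SKO 2.

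Over all genes tested, limma called 6 of 11607 (0.0517%), none of them among the 9. At an unadjusted p under 0.05, 3 of the 9 were lower in K15SKO (Phka1, Phkb and Phkg1), where 8.12% of all tested genes were, and 1 was higher (Gbe1), where 8.43% were. The groups did not overlap for 1 lower gene (Phka1, against 11.3% of tested genes) and 1 higher gene (Gbe1, against 13.4%), so the count of genes with separate groups is near the background. The median log2 difference of the 9 was -0.79, beside -0.02 over all tested genes. The 9 were chosen with earlier results of these data known, so these comparisons with all tested genes only describe the list. By library the median of the 9 against the MyoCre mean was -1.32, -0.89 and -0.01 in K15SKO 1 to 3.

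With K15SKO 3 left out, for which the labels offer no reason, limma called 7 of the 9. Gbe1 was called higher, and 6 genes were called lower, namely Pygm, Phka1, Phkb, Phkg1, Ppp1r3a and Ugp2. In that fit 12.8% of all tested genes were called lower and 10.8% higher. Log2 differences were -1.18 (SE 0.13, limma adjusted p = 0.00894) for Pygm, -1.25 (SE 0.11, adjusted p = 0.00701) for Phkg1 and 1.08 (SE 0.15, adjusted p = 0.0138) for Gbe1. Gys1 (adjusted p = 0.426) and Ppp1r3c (adjusted p = 0.167) were not called. The same 7 genes were called with limma's array weights, a fit that called 20.7% of all tested genes and gave K15SKO 3 the lowest weight of the 6 libraries (0.200) and MyoCre 1 the highest (2.43).

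**Figure D3:**
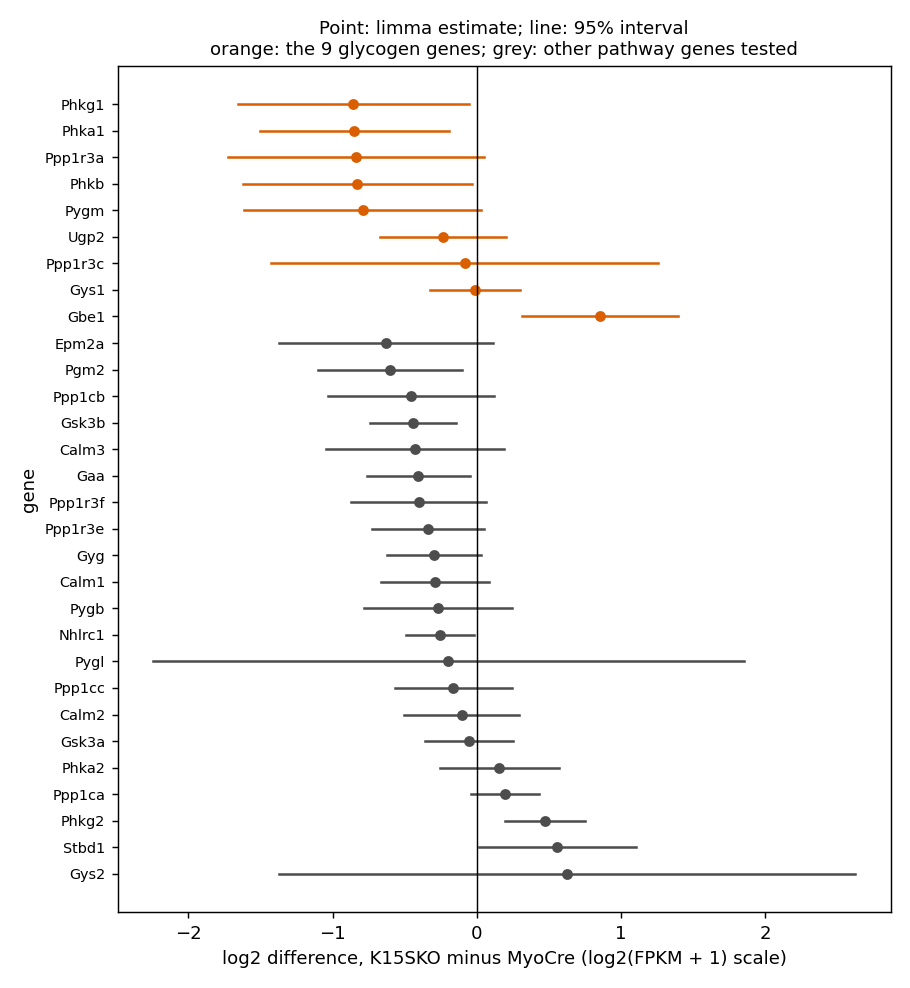
Log2 difference of K15SKO minus MyoCre on the log2(FPKM + 1) scale (x axis) for the 9 genes (orange) and 21 of the other pathway genes tested (grey), as limma estimates with 95% intervals from all 6 libraries. Among the 9, the intervals of Phkg1, Phka1 and Phkb lie below 0 and that of Gbe1 lies above 0, and none of the 30 genes drawn passed the adjusted threshold.

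Ratios within a library do not depend on how the library was scaled. Pygm stood 18.7, 19.5 and 22.2 times as high as Gys1 in MyoCre 1 to 3, and 8.03, 11.2 and 17.8 times as high in K15SKO 1 to 3. Every K15SKO ratio lay below every MyoCre ratio, K15SKO 3 included. As log2 of Gys1 over Pygm, the means were -3.55 ± 0.58 in K15SKO and -4.33 ± 0.13 in MyoCre (SD, n = 3 each), with an exact two-sided permutation p = 0.1. That is the smallest p that 3 against 3 libraries allow, and it was 0.167 adjusted over 5 such measures.

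Ratios among the breakdown genes, were chosen after the values were seen. The ratio of Pygm to Phkg1 ran from 11.2 to 12.3 over all 6 libraries, and that of Phkg1 to Phkb from 2.00 to 2.16. Ratios with Phka1 were wider, at 1.48 in K15SKO 3 to 1.80 in K15SKO 2 for Phka1 to Phkb, and 0.707 to 0.902 in the same libraries for Phka1 to Phkg1. By contrast the ratio of Gys1 to Gbe1, the chain-building and the branching enzyme, was 6.93, 7.63 and 7.94 in MyoCre and 2.99, 3.50 and 6.31 in K15SKO 1 to 3.

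The muscle forms dominated their gene families in both groups. Pygm made up 99.2% to 99.9% of the summed FPKM of Pygm, the brain form Pygb and the liver form Pygl in each library. Phka1 made up 99.1% or more of Phka1 and Phka2 (Phka2 is the liver form) in the 3 MyoCre libraries and 97.4%, 97.5% and 99.1% in K15SKO 1 to 3. Phkg1 made up 98.5% ± 0.0567 (SD, n = 3) of Phkg1 and Phkg2 (Phkg2 is the liver and testis form) in MyoCre, against 93.7%, 95.2% and 98.0% in K15SKO 1 to 3. Each K15SKO share of Phka1 and of Phkg1 was below the MyoCre shares (exact two-sided permutation p = 0.1 for each, adjusted p = 0.167). For Phka1 this separation is very narrow, at 99.109% in K15SKO 3 against 99.113% in MyoCre 3. The Phkg1 share carries the uncertainty of the Phkg1 level given above for its overlap with Chchd2.

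Phkg2 itself measured 4.50, 4.52 and 4.77 FPKM across MyoCre 1 to 3, against 7.77, 6.86 and 5.85 FPKM across K15SKO 1 to 3, with no overlap. Its log2 difference was 0.48 (SE 0.12, limma adjusted p = 0.259), opposite in sign to that of Phkg1. Gys1 made up 99.3% to 99.8% of Gys1 and the liver synthase Gys2 in MyoCre, 99.7% and 99.9% in K15SKO 1 and 3, and 93.8% in K15SKO 2. Gys2 was at 9.81 FPKM and Pygl at 12.8 FPKM in K15SKO 2, where transcripts of hepatocytes were also high, against 0.181 to 1.11 FPKM and 0.606 to 5.01 FPKM in the other 5 libraries. The part of liver transcripts in these Gys2 and Pygl values, and in those of Phka2 and Phkg2, was not tested.

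**Figure D4:**
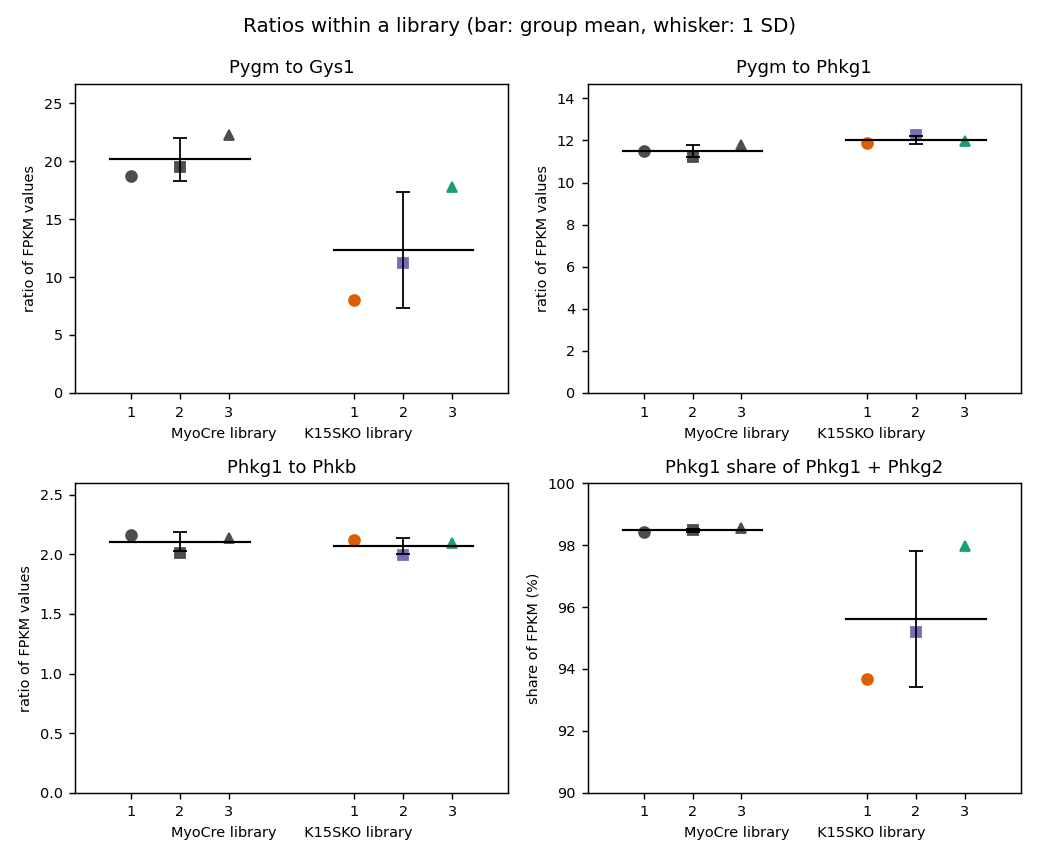
Ratios of FPKM values within each library (y axis) for Pygm to Gys1, Pygm to Phkg1 and Phkg1 to Phkb, and the Phkg1 share of Phkg1 plus Phkg2 in percent (axis from 90 to 100), by library (x axis), with the group mean as a bar and 1 SD as a whisker. Pygm to Gys1 and the Phkg1 share are lower in every K15SKO library, while Pygm to Phkg1 stays between 11.2 and 12.3.

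Of 26 further genes of the pathway, 22 reached a mean of 1 FPKM and were tested, and limma called 0 of them. At an unadjusted p under 0.05, 4 of the 22 were lower, where 8.12% of all tested genes were, and 2 were higher, near the 8.43% over all tested genes. Estimates were below 0 for 17 and above 0 for 5, with a median of -0.28, beside -0.02 over all tested genes. This list, too, was chosen with earlier results known. The 4 lower at an unadjusted p under 0.05 were Gsk3b, Pgm2, Gaa and Nhlrc1. Gsk3b, a kinase that inhibits glycogen synthase, measured 17.2, 20.6 and 18.1 FPKM across MyoCre 1 to 3, against 12.0, 13.2 and 15.2 FPKM across K15SKO 1 to 3. The phosphoglucomutase listed as Pgm2, which GENCODE M21 names Pgm1 and which links glucose 1-phosphate to glucose 6-phosphate, measured 773, 816 and 853 FPKM across MyoCre 1 to 3, against 406, 548 and 693 FPKM across K15SKO 1 to 3.

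Gaa, the lysosomal enzyme that degrades glycogen, was at 132 ± 14.6 FPKM in MyoCre against 99.7 ± 12.7 FPKM in K15SKO (SD, n = 3 each). Nhlrc1, the ubiquitin ligase malin, was at 4.76 ± 0.390 against 3.83 ± 0.201 FPKM. For all 4 the groups did not overlap, as for 7 of the 22 that were lower, against 11.3% of all tested genes. Their adjusted p ran from 0.272 to 0.290 in limma. Stbd1, which binds glycogen and tethers it to membranes, was high in K15SKO 1 and 2 at 49.95 and 44.4 FPKM, and at 27.3 FPKM in K15SKO 3 it lay within the MyoCre range of 24.6 to 28.2 FPKM (log2 difference 0.56, limma adjusted p = 0.297). Without K15SKO 3, limma called 7 of the 22 lower, where 12.8% of all tested genes were, and 2 higher (Phkg2 and Stbd1), where 10.8% were, so the higher count is near the background.

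The genes most similar in pattern were sought among all genes tested by the Pearson correlation of log2(FPKM + 1) over the 6 libraries, given here as a description. For Pygm they were Smad4 (r = 0.999), at 21.6 to 24.8 FPKM in MyoCre and 12.0, 14.2 and 22.9 FPKM in K15SKO 1 to 3, then Acads (r = 0.999) and Tab2 (r = 0.998). For Gys1 they were BC002163 (r = 0.993), Nme2 (r = 0.989) and Angptl7 (r = 0.987). The 6 points share 2 groups, and each value rests on the contrast between a few libraries.

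Some marker lists moved with K15SKO 1 and 2, the libraries with low breakdown genes, and others did not. The summed level of 14 skeletal muscle markers was 45733 to 54147 FPKM in MyoCre and 36072, 34859 and 57867 FPKM in K15SKO 1 to 3, so this sum, which a few very abundant genes carry, was also lower in K15SKO 1 and 2. Gene by gene, 0 of the 14 were lower and 2 were higher without overlap, and 3, 2 and 11 of the 14 lay above every MyoCre library in K15SKO 1 to 3. A marker low in K15SKO 1 and 2 alone counts as overlapping. Markers below every MyoCre library were not counted by library, so these counts do not show how many fell in K15SKO 1 and 2. None of these 14 was at 0 in any library. Of 8 fast fibre markers, 1 was listed at 0 in each library, but a different gene in each group. Pvalb was at 0 in MyoCre against a mean of 9270 FPKM in K15SKO. Myh1 had a mean of 447 FPKM in MyoCre and was at 0 in K15SKO. Whether these 0 values are an absence of transcript or a gap in the listed values was not tested, so neither gene is read here as a change in muscle. Over all genes limma called 6, and 0 once genes listed at 0 in every library of a group were left out. In whole tissue, fewer muscle cells and less of a transcript per cell cannot be told apart. Macrophage markers (10 genes) summed to 43.2 to 52.2 FPKM in MyoCre and to 341, 191 and 40.1 FPKM in K15SKO 1 to 3. Markers of regenerating or denervated muscle (7 genes) summed to 6.77 to 7.99 FPKM in MyoCre and to 76.4, 65.1 and 12.3 FPKM in K15SKO.

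Both lists were thus highest in the libraries in which the phosphorylase and kinase genes were lowest, and their part in the glycogen gene values was not tested. Hepatocyte markers (15 genes) summed to 0.989 to 4.28 FPKM in MyoCre and to 73.6, 5979 and 12.8 FPKM in K15SKO 1 to 3, with Alb at 2203 FPKM in K15SKO 2. The part of liver transcripts in the values of the 9 genes was not tested. Slow fibre markers (9 genes) summed to 52.2 to 306 FPKM in MyoCre and to 820, 248 and 1130 FPKM in K15SKO 1 to 3. Their part in the glycogen gene values was not tested. Adipocyte markers (8 genes) summed to 476 to 1122 FPKM in MyoCre and to 202, 138 and 338 FPKM in K15SKO, and 7 of the 8 were lower without overlap. Endothelium markers (5 genes) summed to 33.4 to 41.4 FPKM in MyoCre and to 23.5, 26.4 and 49.0 FPKM in K15SKO 1 to 3. Fibroblast markers (5 genes) summed to 164 to 187 FPKM in MyoCre and to 270, 202 and 149 FPKM in K15SKO. Red blood cell markers (5 genes) summed to 95.7 to 598 FPKM in MyoCre and to 125, 75.4 and 467 FPKM in K15SKO. The part of these lists in the glycogen gene values was not tested.

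**Figure D5:**
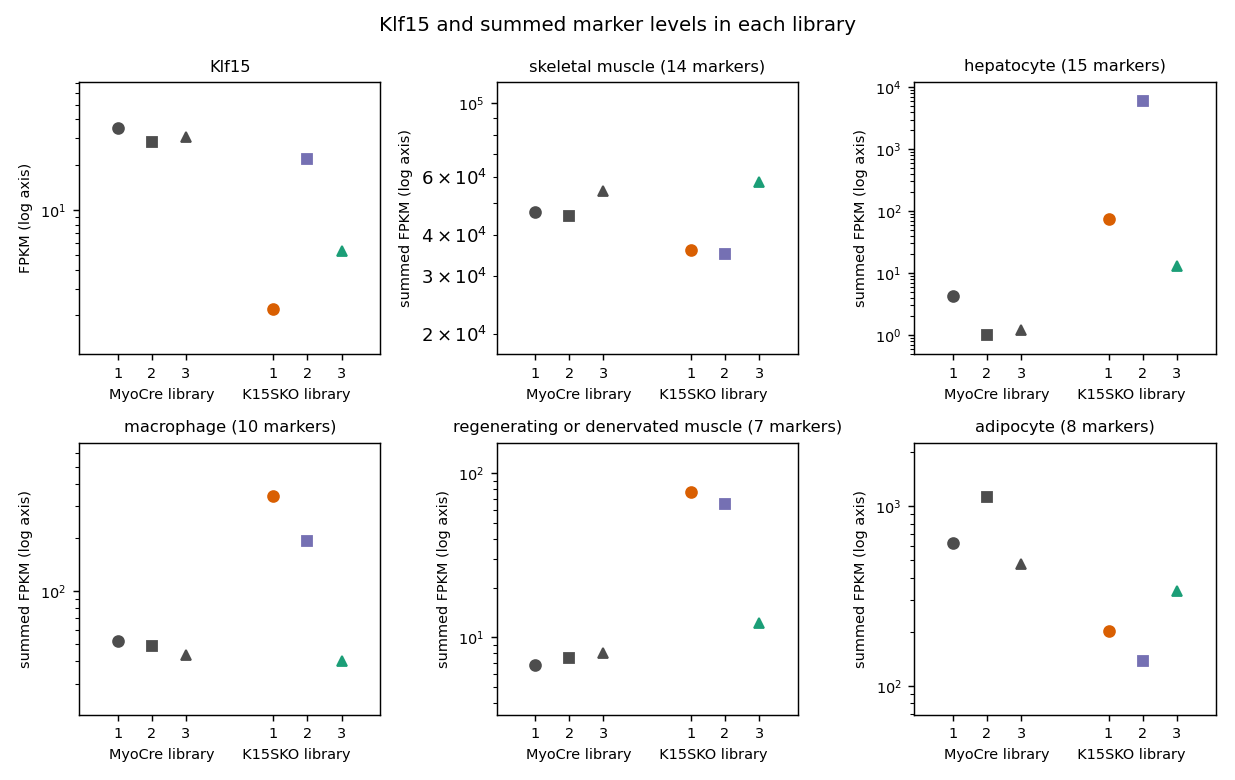
Klf15 level and summed levels of 5 marker lists (y axes, FPKM, log scale) in each library (x axis). Macrophage and regeneration markers are high in K15SKO 1 and 2, hepatocyte markers are highest in K15SKO 2, and Klf15 is lowest in K15SKO 1.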

How the data were processed

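Each value column of the deposited matrix carries the description of 1 sample, which mapped it, leaving 0 columns unmapped. Per the submitters' processing notes, the authors used STAR, Cufflinks, Cuffdiff and the mm10 build; no version, strandedness or filter was stated. FPKM is the unit the authors' tools write; the deposited matrix has no unit in its header, and its values fit that reading. Genes with a mean of at least 1 FPKM over the 6 libraries (11607 of 23314) entered a limma fit (version 3.58.1, R 4.3.3, lmFit and eBayes with trend) of log2(FPKM + 1). Tests were two-sided, adjusted after Benjamini-Hochberg over every gene in the fit, at a threshold of 0.05. With the added 1, changes of genes at low levels come out too small; all 9 genes were far above the filter. Differences are K15SKO minus MyoCre. Ratios were tested with exact permutation tests in scipy 1.17.1 (Python 3.11.15). The limma fit, and no other step, was tested on simulated data. The simulation gave both groups the spread of the MyoCre libraries, so it does not cover a K15SKO group with a wider spread. Promoters came from RefSeq (GRCm38.p6; 9 of 9 genes matched) and coordinates from GENCODE M21.

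Same-numbered libraries were checked for pairing: deviations from the group means correlated at 0.00, 0.09 and 0.09 for numbers 1 to 3. With so few libraries these values cannot exclude pairing. The labels state none, so the main fit has no block. Alternatives were other pseudocounts, filters and scalings, eBayes without trend, array weights, the replicate block and each library left out. The named genes were Klf15, the 9 genes, the 6 further pathway genes with the smallest p, the other isoforms and the 3 genes most like Gys1 and Pygm. Values of 1 further pathway gene are not reported here. The members and lists were chosen with earlier results of these data known.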

Additional observations from a re-analysis of the deposited data

How the results depend on the processing

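None of the 9 genes was called under 13 of the 15 alternatives listed with the processing. With array weights 7 were called, as were 7 of the other pathway genes and 2398 of all genes. Leaving out each library in turn gave 0 to 7 calls among the 9, 0 to 9 among the other pathway genes and 3 to 2743 over all genes, the highest of each without K15SKO 3. The count over all genes, 6, was 3 with no filter on low values and 3 with the replicate block, under which 0 of the 9 were called. The labels do not state whether the numbers pair the libraries. Without genes listed at 0 in every library of a group, an alternative added after seeing the data, limma called 0 genes, with 1930 at an unadjusted p under 0.05. Over the libraries left out, the median of the 9 ran from -1.14 to -0.48, and the difference in the log2 ratio of Gys1 to Pygm from 0.51 to 1.08. Signs turned for 4 genes, none of them called. Gys1 was 0.018 after median-of-ratios rescaling and ran from -0.10 to 0.081 over the libraries left out, positive without K15SKO 2. Ppp1r3c ran from -0.70 to 0.25, positive without MyoCre 1 (0.23), K15SKO 1 (0.25) or K15SKO 2 (0.20). Pygl (-0.20 with all libraries) was 0.63 with array weights and ran from -1.15 to 0.40, positive without MyoCre 1, MyoCre 2, K15SKO 1 or K15SKO 3. Gys2 (0.63) ran from -0.38 without K15SKO 2 to 1.21 without K15SKO 3 and was 1.62 with array weights. The causes were not tested. Pgm1, Ppp1r3b, Ppp1r3d and Ppp1r3g were under the filter and were not tested.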

Other observations

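The catalytic subunits of protein phosphatase 1, which Ppp1r3a and Ppp1r3c direct to glycogen, were measured too, and are named here after their values were seen. Ppp1ca, the alpha form, measured 130, 131 and 128 FPKM across MyoCre 1 to 3, against 149, 150 and 148 FPKM across K15SKO 1 to 3. It was higher by a near equal amount in all 3 K15SKO libraries, K15SKO 3 included, with means of 149 ± 0.843 and 130 ± 1.37 FPKM (SD, n = 3 each) and a log2 difference of 0.20 (limma adjusted p = 0.337). Ppp1cb, the beta form, measured 102, 112 and 108 FPKM across MyoCre 1 to 3, against 55.1, 79.8 and 107 FPKM across K15SKO 1 to 3, the pattern of the phosphorylase kinase genes.

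The laforin gene Epm2a, a glycogen phosphatase, measured 52.2, 55.0 and 63.7 FPKM across MyoCre 1 to 3, against 25.4, 31.2 and 60.0 FPKM across K15SKO 1 to 3 (limma adjusted p = 0.334). K15SKO 1 and 2 lay below every MyoCre library and K15SKO 3 lay within their range. Gyg, the glycogenin gene that primes the chain, measured 313, 326 and 348 FPKM across MyoCre 1 to 3, against 252, 247 and 308 FPKM across K15SKO 1 to 3, below every MyoCre library in 3 of 3 (limma adjusted p = 0.315).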
